A study of Mus musculus with 4 samples.

Results

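Liver RNA of mice with and without hepatocyte LPIAT1 was measured for 10 genes of bile acid synthesis and transport: Cyp7a1, Cyp8b1, Cyp27a1, Cyp7b1, Baat, Abcb11, Slc10a1, Slc51b, Nr1h4 and Nr0b2. The genes were chosen by name, and each probe whose transcript accession mapped to one of them in the RefSeq gene table was taken. All 10 had a probe, 13 probes in total, out of 23462 genes with a matched probe. LPIAT1, encoded by Lpiat1 (Mboat7), loads arachidonic acid onto phosphatidylinositol. The series holds 4 one-colour Agilent arrays, 1 for each combination of genotype and diet. The F/F groups were livers of Lpiat1 F/F mice, which carry floxed Lpiat1 alleles and no Cre. The LKO groups were livers of Alb-Cre; Lpiat1 F/F mice, in which the albumin promoter drives Cre in hepatocytes. The paper calls this knockout hepatocyte-specific. Whether the other liver cells kept the gene was not measured here. All 4 groups were male, 24 weeks old, on a C57BL/6 background and carried the floxed alleles. Chow (CE2) or the high fat diet HFD-60 (HFD) was given for 18 weeks from 6 weeks of age. Whether the RNA on an array came from 1 mouse or from a pool is not given in the sources used here.

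Bile acids are made from cholesterol in hepatocytes. In the classical pathway, CYP7A1 adds the first hydroxyl group and sets the rate, and CYP8B1 decides how much cholic acid is formed. In the alternative pathway, CYP27A1 acts on the side chain and CYP7B1 adds the hydroxyl group at the position that CYP7A1 uses in the classical one. BAAT couples the products to taurine or glycine, the bile salt export pump Abcb11 secretes them into the canaliculus, and NTCP (Slc10a1) takes them up again from the blood. The nuclear receptor FXR (Nr1h4) binds bile acids and induces SHP (Nr0b2), which represses Cyp7a1 and Cyp8b1, and it also induces Slc51b, the beta subunit of the basolateral exporter OSTα-OSTβ.

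Values are the processed signal of the scanner software. Differences are in log2, after each array was divided by the 75th percentile of its spots that were not controls, which was 222 (F/F) and 213 (LKO) on chow and 263 (F/F) and 296 (LKO) on HFD. Where 4 values follow each other below they stand in this order. With 1 array per condition no difference has a replicate check, and no test was made. Each probe of the 10 genes is on the array once, so the technical spread was taken from other probes with replicate spots. The SD of the difference of 2 such spots was 0.072 (log2) for signals over 1000, 0.127 for 100 to 1000 and 0.271 under 100. These values rest on 272, 19 and 15 probes. Both spots lie on the same array. The SD thus leaves out all differences between mice, between RNA preparations, and between arrays in labelling, hybridization and scanning. In whole liver, fewer hepatocytes and less RNA per hepatocyte cannot be told apart. Of the spots that were not controls, between 53.0% and 57.0% per array were well above background. The targeted gene, Mboat7, had signals of 1102, 861, 1181 and 1100, and LKO minus F/F was -0.30 (log2) on chow and -0.27 on HFD. Whether its probe lies in the deleted exons is not known here, so this is no check of the genotype.

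The promoter sequences that RefSeq gives for 4 of the genes are shown because each holds letters of a regulator on whose transcript these arrays report, and because Slc51b and Nr0b2 are known FXR targets and Cyp8b1 is repressed by SHP. The window is the 250 bases before the start site in GRCm38.p6, read 5′ to 3′ on the strand of the gene. Capitals mark the letters found on either strand.
Cyp8b1, chr9:121916306-121916555, minus strand, a match to the HNF4A letters CAAAGTCCA: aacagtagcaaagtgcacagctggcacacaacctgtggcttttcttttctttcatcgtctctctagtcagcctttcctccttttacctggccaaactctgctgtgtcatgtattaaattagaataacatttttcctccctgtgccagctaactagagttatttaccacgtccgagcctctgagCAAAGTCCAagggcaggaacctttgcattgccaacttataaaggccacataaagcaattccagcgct
Nr0b2, chr4:133553126-133553375, plus strand, the E-box CACGTG that clock factors bind: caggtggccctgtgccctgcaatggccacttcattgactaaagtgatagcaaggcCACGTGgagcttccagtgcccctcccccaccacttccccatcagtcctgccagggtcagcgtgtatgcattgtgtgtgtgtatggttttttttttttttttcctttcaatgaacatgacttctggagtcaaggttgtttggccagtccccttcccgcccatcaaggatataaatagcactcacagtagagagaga
Slc51b, chr9:65422774-65423023, minus strand, the nuclear receptor letters AGGTCA: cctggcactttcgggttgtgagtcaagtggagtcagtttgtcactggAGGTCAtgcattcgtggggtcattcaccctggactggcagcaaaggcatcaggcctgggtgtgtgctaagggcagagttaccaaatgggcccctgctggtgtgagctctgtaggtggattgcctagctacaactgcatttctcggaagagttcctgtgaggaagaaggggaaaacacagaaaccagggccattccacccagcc
Abcb11, chr2:69342617-69342866, minus strand, the same letters on the other strand: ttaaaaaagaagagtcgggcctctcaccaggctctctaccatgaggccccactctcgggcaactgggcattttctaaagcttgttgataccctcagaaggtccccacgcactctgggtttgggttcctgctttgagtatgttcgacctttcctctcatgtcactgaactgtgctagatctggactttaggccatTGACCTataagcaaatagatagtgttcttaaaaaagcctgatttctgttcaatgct

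The table held promoters for 7 of the 10 genes, 8 promoters because Slc10a1 has 2 start sites, and none for Cyp7a1, Cyp7b1 and Baat. All were searched from 250 bases before to 50 bases after the start site. The letters AGGTCA were found in 4 of the 8 (Abcb11, Slc51b, Nr1h4 and 1 start of Slc10a1) and in 16.3% of the 32851 promoters of the table. The HNF4A letters were found in Cyp8b1 alone among these 8 and in 0.475% of all promoters, and the E-box in Nr0b2 alone among these 8 and in 7.15% of all. None of the 8 held the LRH-1 letters TCAAGGTCA (0.423% of all) or the shorter AAGGTCA (4.72%), which contains AGGTCA, the D-box TTANGTAA (2.32%) or the IR-1 element that FXR binds (0.00913%). Both strands were searched, and a match is a description of the letters in this window and no measured binding.

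Cyp7a1 was lower in LKO than in F/F on both diets, Cyp7b1 had lower signal with HFD in both genotypes, and Slc51b was measurable only on the 2 HFD arrays. On chow, Cyp7a1 was the only one of the 9 genes with a value that differed at least 2-fold between genotypes. It was 2.98-fold lower in LKO, and over all genes 1.03% were at least 2-fold lower and 1.11% at least 2-fold higher. On HFD, none of the 10 genes differed at least 2-fold between genotypes, where 1.91% of all genes were at least 2-fold lower and 2.36% higher. Cyp7a1 came closest, 1.98-fold lower in LKO. Between diets, Cyp7b1 was at least 2-fold lower and Slc51b at least 2-fold higher on HFD in each genotype, and the other 8 genes were within 2-fold. In F/F, 2.94% of all genes were at least 2-fold lower on HFD and 5.21% higher. In LKO these shares were 4.07% and 8.12%. Each of these counts rests on 1 gene and is no result about the 10 genes as a group.

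**Figure D1:**
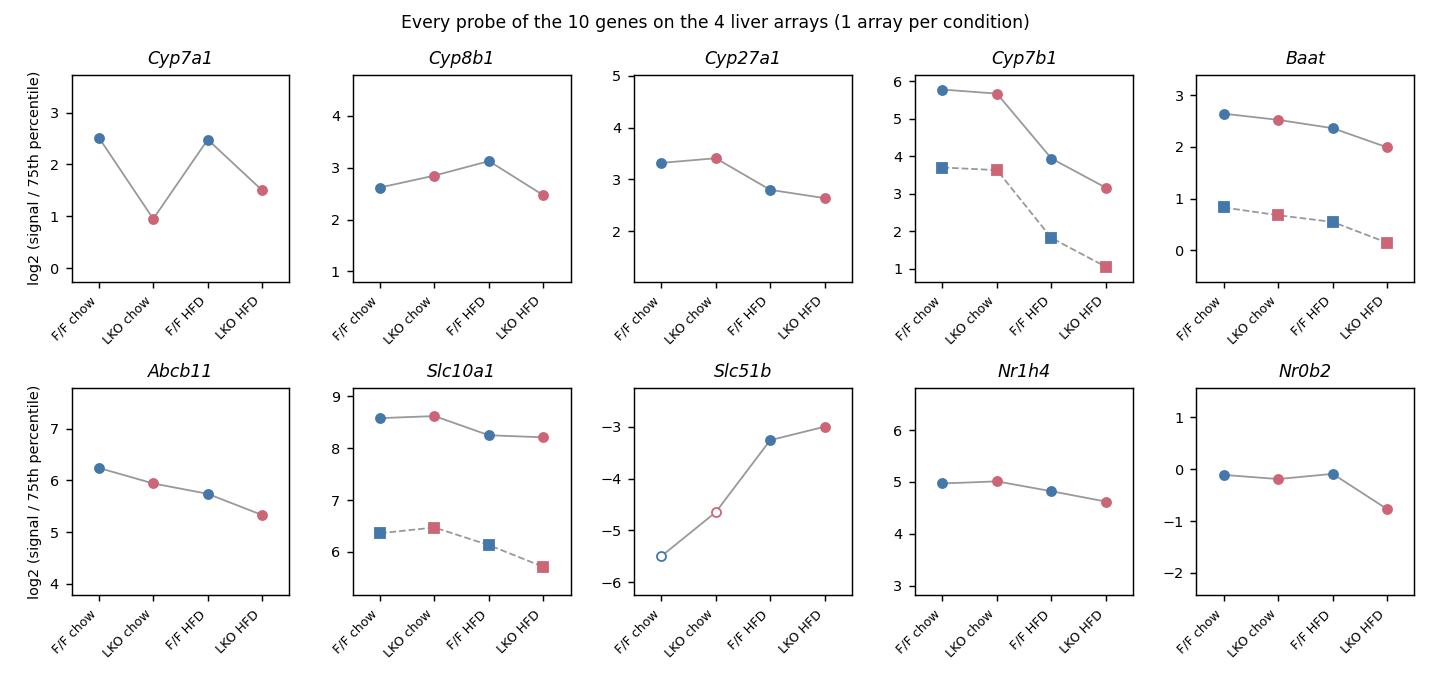
Signal of each probe of the 10 genes on each array, as log2 of the signal over the 75th percentile of that array (blue F/F, red LKO). Circles are the probe that stands for the gene, squares a second probe, and open symbols signals not well above background. The axis of each panel starts and ends at its own values, and lines only join the points of a probe. Cyp7a1 lies lowest on the 2 LKO arrays, both Cyp7b1 probes lie lower on the 2 HFD arrays, and Slc51b is above background on the 2 HFD arrays only.

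Cyp7a1, the rate-limiting enzyme, had signals of 1274 in F/F and 411 in LKO on chow, and of 1472 (F/F) and 834 (LKO) with HFD. Both LKO arrays lay below both F/F arrays. The difference of LKO from F/F was -1.57 on chow, where only 52 of 14981 genes had a lower value, and -0.99 on HFD, where 303 of 15528 did. The 2 F/F arrays differed by -0.04, less than the technical spread, while the 2 LKO arrays differed by 0.55 between diets. Under the percentile scaling, the genotype difference on HFD thus lay 0.59 above that on chow, which was not tested. Under scaling to hepatocyte markers the diet differences were 0.30 in F/F and 1.15 in LKO, further apart than under the percentile. Over the 9 alternatives of processing the chow value lay between -1.59 and -1.39 and the HFD value between -0.99 and -0.73. Cyp7a1 has 1 probe, above background on all 4 arrays, so the deposited table, the filters and the choice of probe could not move these values.

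Cyp8b1, the sterol 12-alpha-hydroxylase that directs synthesis to cholic acid, had signals of 1362, 1539, 2297 and 1644. It was highest on F/F HFD. LKO was 0.23 above F/F on chow and 0.65 below it on HFD (log2 difference -0.65). HFD was above chow by 0.51 in F/F and below it in LKO (-0.38), and the sign of the latter turned to 0.23 when arrays were scaled to hepatocyte markers.

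Cyp27a1, the mitochondrial enzyme that starts the alternative pathway, had signals of 2210, 2267, 1839 and 1847. Its genotype differences were 0.09 on chow and -0.16 on HFD, the latter 0.09 under scaling to hepatocyte markers. Both HFD arrays were lower than both chow arrays, by -0.51 in F/F and -0.77 in LKO.

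Cyp7b1, the oxysterol 7-alpha-hydroxylase, is known to be more abundant in male than in female mouse liver. Its brighter probe gave 12180 in F/F and 10875 in LKO on chow, and 4027 (F/F) and 2637 (LKO) with HFD. The chow arrays differed by -0.11, and both HFD arrays lay far below both of them, LKO HFD lowest. HFD was 3.59-fold lower than chow in F/F (-1.84) and 5.72-fold lower in LKO (-2.52), where 53 of 15242 genes had a lower value. On HFD, LKO was below F/F by -0.78 (log2 difference), and the genotype difference on HFD was below that on chow by -0.67, which was not tested. The dimmer probe, with signals of 2885, 2633, 932 and 611, gave -1.88 and -2.58 for the diet, and the probes differed by at most 0.06 in any comparison. Over the alternatives, the diet difference lay between -1.88 and -1.50 in F/F and between -2.58 and -1.91 in LKO.

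Baat, the conjugating enzyme, had signals of 1385, 1220, 1355 and 1174 with the brighter of 2 probes, and 394, 341, 386 and 327 with the other. The probes differed by at most 0.03 in each comparison. LKO was lower by -0.13 on chow and -0.38 on HFD, and HFD lower by -0.28 in F/F and -0.53 in LKO. The diet differences changed sign to 0.06 and 0.07 under scaling to hepatocyte markers.

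Abcb11, which pumps bile salts into bile, had signals of 16780, 13122, 14082 and 11904. It was highest on F/F chow and lowest on LKO HFD, and each step in this order exceeded 2 technical SD. The log2 differences were -0.30 and -0.41 for genotype on chow and HFD, and -0.50 and -0.61 for diet in F/F and LKO. Of all genes, 10.6% had a lower genotype value on chow and 11.7% on HFD.

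Slc10a1, the sinusoidal uptake carrier NTCP, had signals of 84937, 84039, 80292 and 87593 with its brighter probe. The genotype differences were 0.04 on chow and -0.04 on HFD, both below the technical spread. Its second probe, which the array design ties to another transcript, gave 18211, 18956, 18461 and 15482. For that probe LKO was 0.42 below F/F on HFD (log2 difference -0.42), so the probes disagreed by 0.38 there, and the genotype value for Slc10a1 on HFD depends on the probe. For the diet in LKO the probes gave -0.41 and -0.76.

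Slc51b, the exporter subunit, was not well above background on the chow arrays (4.91 on F/F and 8.51 on LKO) and gave 27.4 (F/F) and 37.1 (LKO) on HFD. The genotype difference on HFD was 0.27, of the size of the technical spread at this brightness (0.271), and on chow there is no value. Against the lowest signal that counts as well above background, or the dim spot where that was brighter, Slc51b was at least 2.96-fold higher on HFD in F/F and at least 3.14-fold higher in LKO. The signals are close to background, and normexp background correction reduced the differences to 0.31 and 0.09. Slc51a, the alpha subunit of the same exporter, was not well above background on any array (1.82, 1.89, 1.97 and 1.80). OSTβ is also made in bile ducts and ileum. Of 11 cholangiocyte markers, 7 were higher on HFD in F/F and 9 in LKO (medians 0.37 and 0.58), against 47.8% and 43.5% of all genes. Their summed signal was 2980, 2814, 7102 and 8172 in array order. Most of it came from Spp1 (840, 796, 3314 and 4158) and Anxa4 (1384, 1449, 2306 and 3000). Of the 4 markers lower on HFD in F/F, Sox9 differed most (-1.93, and -0.26 in LKO). Of 10 intestinal markers with a probe, Alpi, Sis, Cdx1, Cdx2 and Cdh17 were not well above background on any array. Vil1 was so on LKO HFD alone (48.9, at least 5.21-fold above F/F HFD) and Lct on LKO chow alone (16.1). Fabp2, Apoa4 and Lgals4, the first 2 also made in liver, were above background on all 4 arrays, and HFD minus chow in F/F and LKO was 1.32 and -0.16 for Fabp2, 3.17 and 1.61 for Apoa4 and -0.42 and -0.60 for Lgals4. The part of bile duct or intestinal cells in the Slc51b signal was not tested.

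Nr1h4, which encodes FXR, had signals of 6973, 6875, 7417 and 7285. Genotype differences were 0.04 on chow and -0.19 on HFD, and diet differences -0.16 in F/F and -0.39 in LKO. These spanned 0.39 over the 4 arrays, the narrowest range of the 10 genes. Nr0b2, which encodes the repressor SHP, had signals of 206, 187, 248 and 173. LKO chow, F/F chow and F/F HFD followed each other by 0.08 and 0.02 (log2), less than the technical spread, and LKO HFD lay below all 3. The log2 differences were -0.68 for genotype on HFD and -0.58 for diet in LKO, the latter 0.02 under scaling to hepatocyte markers.

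**Figure D2:**
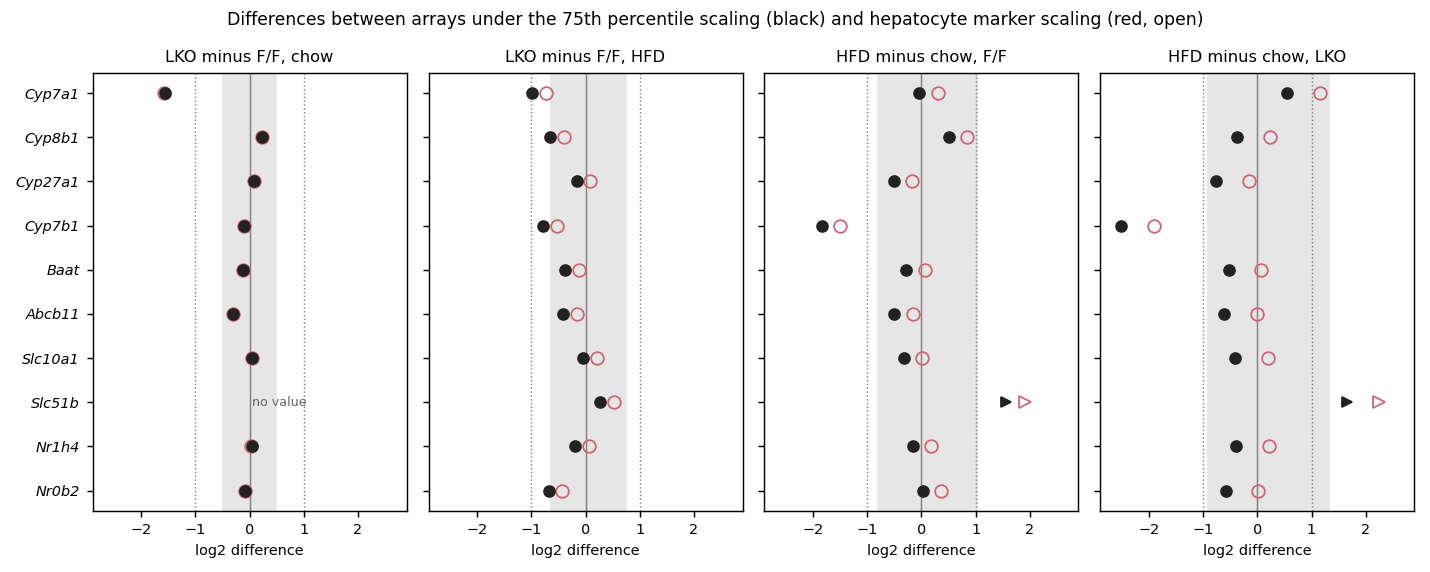
Log2 difference of each gene in the 4 comparisons, by the probe that stands for the gene. Black symbols are scaled to the 75th percentile and open red symbols to hepatocyte markers. Triangles are bounds, dotted lines mark 2-fold, and the grey band spans the 5th to 95th percentile of all genes. Cyp7a1 at -1.57 on chow, Cyp7b1 at -1.84 and -2.52 between diets and the Slc51b bounds at 1.56 and 1.65 lie outside the band, as do Cyp7a1 (-0.99), Cyp7b1 (-0.78), Nr0b2 (-0.68) and, at its edge, Cyp8b1 (-0.65) between genotypes on HFD, and scaling moves the HFD values of all genes to the right.

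Across the genes, 8 of the 9 that were well above background on all 4 arrays had their lowest value on LKO HFD. Cyp7a1, lowest on LKO chow, was the other. Of all 13981 such genes, 39.8% were lowest on LKO HFD. The median of the 10 genes was -0.08 on chow and -0.39 on HFD for genotype, and -0.22 in F/F and -0.47 in LKO for diet. The medians over all genes were 0.00, -0.03, -0.02 and -0.07. This order depends on how arrays are made comparable. The 10 hepatocyte markers (Alb, Apoa1, Ttr and others) were close to equal on chow (median 0.02) but had medians of -0.19 for genotype on HFD, and -0.28 and -0.54 for diet. Their summed signal was 903934, 880233, 891804 and 864980, nearly level before scaling, while the 75th percentile was higher on the HFD arrays. Most of this sum came from Alb, Serpina1a and Trf, and single markers were not level. Before scaling, Cps1 (7877, 7326, 4325 and 4986) and Hnf4a (40668, 36252, 28625 and 31832) were lower on the HFD arrays. Trf was higher there (137551, 134678, 145045 and 157273). When each array was instead set to the mean of 9 of these markers, the median of the 10 genes became -0.14 for genotype on HFD, 0.12 for diet in F/F and 0.13 in LKO, and 2 of the 9, Cyp7b1 and Abcb11, were lowest on LKO HFD, against 5.72% of all genes. The median over all genes moved to 0.22, 0.32 and 0.52 in these comparisons. Relative to the hepatocyte markers, then, the differences of Cyp7a1 on chow (-1.57 under the percentile) and of Cyp7b1 with diet kept at least 2-fold size, as did the bounds of Slc51b, and the diet differences of Baat, Slc10a1 and Nr1h4 changed sign in both genotypes. So did those of Cyp7a1 in F/F and of Cyp8b1 and Nr0b2 in LKO, and the genotype differences on HFD of Cyp27a1 (to 0.09), Slc10a1 (to 0.21) and Nr1h4 (to 0.06).

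**Figure D3:**
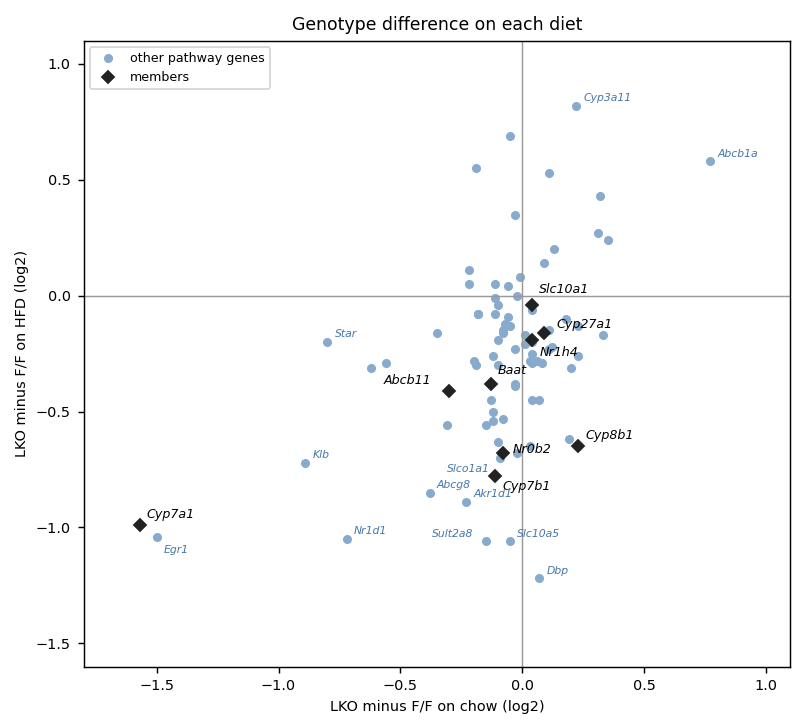
Log2 difference of LKO from F/F on chow (horizontal) and on HFD (vertical), for 9 of the 10 genes (black diamonds) and for the other pathway genes measured on all 4 arrays (blue circles). The 2 axes share no array. Cyp7a1 (-1.57 and -0.99) and Egr1 (-1.50 and -1.04) lie lower left, apart from the rest, and Cyp8b1 lies above 0 on chow and below 0 on HFD.

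The rest of the pathway was described with 84 further genes in 3 lists, of which 83 had a probe. On chow, 47 of 77 with a value were lower in LKO (median -0.05), against 49.3% of all genes. On HFD, 61 of 79 were lower (median -0.22), against 54.1% of all genes. With diet, 47 of 78 were lower on HFD in F/F (median -0.09) and 65 of 78 in LKO (median -0.30), against 52.2% and 56.5% of all genes. Under scaling to hepatocyte markers, 36 of 79 were lower in LKO on HFD, against 21.4% of all genes, and 20 of 78 were lower on HFD in each genotype, against 20.8% in F/F and 10.9% in LKO.

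Among 23 genes of synthesis and conjugation, none differed 2-fold between genotypes on chow and 1 did on HFD. This was Sult2a8, a bile acid sulfotransferase of mouse liver, with signals of 31828, 27586, 19854 and 10689 in array order, a genotype difference of -1.06 on HFD. Its diet difference was -0.93 in F/F and -1.84 in LKO. Cyp2c70, which makes the muricholic acids typical of mice, gave 22151, 22963, 7885 and 12756, lower on HFD by -1.74 and -1.32. Cyp3a11, a bile acid hydroxylase and target of PXR, gave 19953, 22285, 5926 and 11743, lower by -2.00 and -1.40. Both were lowest on F/F HFD, unlike Cyp7b1. Por, the electron donor of microsomal P450 enzymes, was lower on HFD by -0.83 in F/F and -1.32 in LKO. Ch25h, which makes 25-hydroxycholesterol and is also expressed by macrophages, was the one gene of this list at least 2-fold higher on HFD, with 36.3, 30.6, 176 and 160 (2.03 in F/F and 1.92 in LKO). Amacr, Scp2, Hsd17b4, Acox2 and Abcd3, which take up sterol intermediates and shorten their side chain in peroxisomes, had genotype differences between -0.12 and 0.04 on chow and between -0.39 and -0.16 on HFD.

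Among 23 transport genes, Slco1a1, a sinusoidal uptake carrier also known to be more abundant in males, had signals of 2886, 2603, 607 and 419. It was lower on HFD by -2.50 in F/F and -3.11 in LKO, in the same order of arrays as Cyp7b1. Its second probe gave -2.73 and -2.97. Abcb1a, a drug efflux pump, was higher on HFD by 1.20 in F/F and 1.0 in LKO, with 51.1, 84.0, 139 and 234. Slc10a5 was dim and lower in LKO on HFD (24.4 against 13.2, -1.06). Fabp6, the ileal bile acid binding protein, was well above background only on F/F HFD (26.1), so it was at least 3.76-fold lower in LKO on that diet and at least 2.82-fold higher on HFD in F/F. The canalicular genes Abcc2, Abcb4 and Abcg2 had genotype differences between -0.13 and 0.04 on both diets, and the cholesterol exporter subunit Abcg8 -0.38 and -0.85.

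Among 38 regulators, Egr1, an immediate early transcription factor, followed the genotype as Cyp7a1 did, with 1834, 625, 1427 and 781 (-1.50 on chow and -1.04 on HFD). Klb, the co-receptor through which the ileal hormone FGF15 acts on hepatocytes, gave 667, 347, 539 and 368 (-0.89 and -0.72), and its dimmer probe -0.58 and -0.37. Fgf15 itself was not well above background on any array, nor was Malrd1. Nr1d1, a clock repressor, gave 159, 93.1, 204 and 110 (-0.72 and -1.05). LRH-1 (Nr5a2), known to activate Cyp8b1 transcription, differed by -0.12 and -0.50, and Hnf4a by -0.11 and -0.01. With diet, Hnf4a was lower by -0.75 in F/F and -0.66 in LKO. Onecut1 (-1.10 and -1.17), Nfil3 (-1.96 and -1.22) and Junb (-1.43 and -1.16) were at least 2-fold lower on HFD in both genotypes, and Dbp was higher in F/F (1.01) but not in LKO (-0.29).

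**Figure D4:**
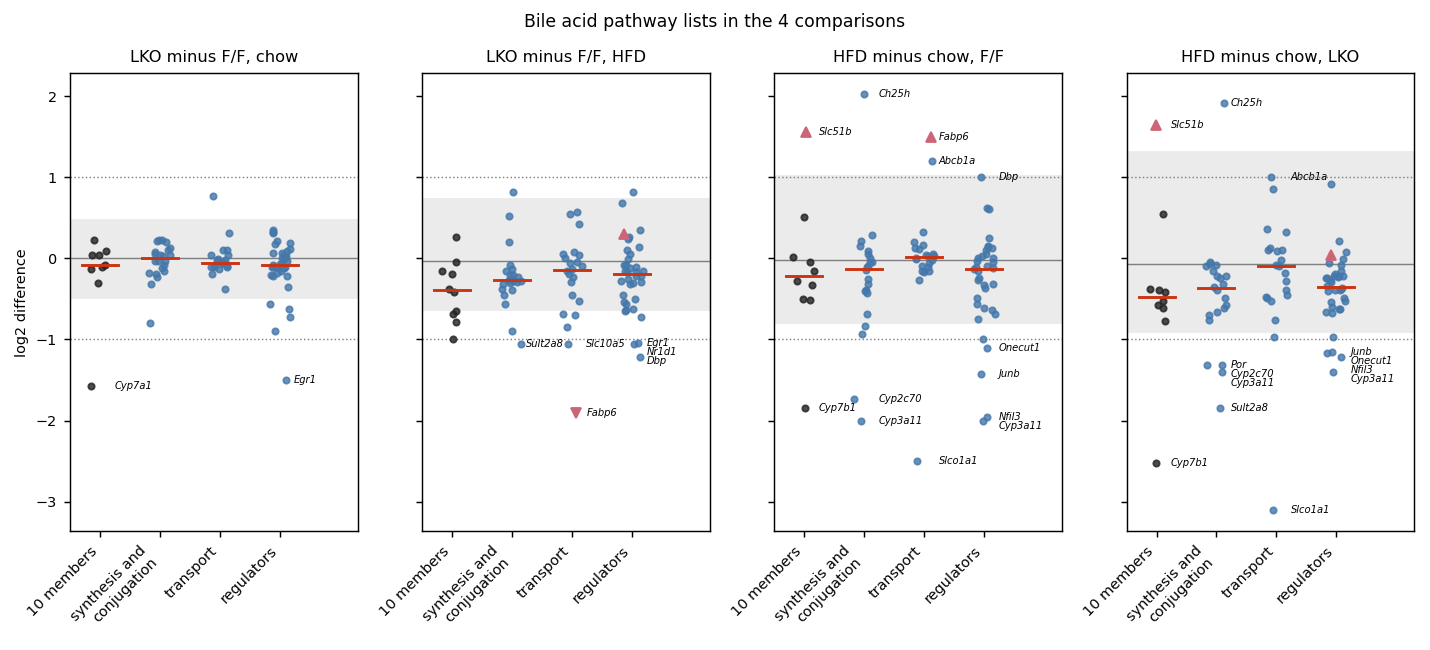
Log2 differences of the 10 genes (black) and of the genes of 3 pathway lists (blue) in the 4 comparisons. Red lines are medians, triangles bounds, dotted lines 2-fold, the grey band the 5th to 95th percentile of all genes and the grey line their median. Genes at least 2-fold higher or lower are named. The medians of the 10 genes are -0.08, -0.39, -0.22 and -0.47 from left to right, and the widest differences are those with diet.

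Cyp7a1, Dbp, Nr1d1 and Nfil3 have a daily rhythm in liver, so the clock list is given beside Cyp7a1. Of its 18 genes, 16 had a value. The F/F HFD array stood apart: Arntl read 145, 102, 31.0 and 178 in array order (log2 difference of LKO from F/F -0.45 on chow and 2.35 on HFD), and Dbp 6034, 6093, 14397 and 6921. On chow, the clock list had a median of -0.01, with 8 of 16 genes on each side of 0 and none at 2-fold. Genes of this list moved in opposite directions between genotypes on HFD, such as Arntl and Dbp, so its median is no measure of the hour. The widest values there were those of Nr1d1 (-0.72), Per2 (0.61), Per3 (0.47), Arntl (-0.45) and Clock (-0.43). These are values of the probe that stands for each gene. A dimmer Arntl probe (24.0, 64.2, 5.37 and 27.1) gave 1.48 on chow and another -0.41, so the Arntl probes disagreed. On HFD the list median was -0.54, with Arntl and Cry1 at least 2-fold higher and Dbp, Nr1d1 and Ciart at least 2-fold lower in LKO. The part of the hour or of feeding in the values of Cyp7a1 on either diet was not tested.

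Cells other than hepatocytes also moved with the groups. In LKO on HFD, 12 of 14 monocyte and macrophage markers were higher than in F/F (median 0.76), against 45.9% of all genes. The other 2, Marco (-1.64) and Timd4 (-0.95), were lower. The summed signal of the 14 was 26398, 24145, 40954 and 60543, and its largest part came from Cd5l (8540, 8813, 16520 and 29783). All 11 exocrine pancreas markers were higher in LKO on HFD too (median 1.74). On chow all 11 were lower in LKO (median -0.88), against 49.3% of all genes. Their summed signals were 13471, 8475, 8926 and 21042, most of it from Amy2a5 and Cela1. Cela1 differed by 0.07 between genotypes on HFD. The probe that stands for Amy2a5 gave 2.04 there, and its other probe (1993, 1775, 1890 and 1978) -0.10. The 6 red blood cell markers with a probe summed to 24166, 22866, 53419 and 30462, and those with a value had median genotype differences of -0.02 on chow and -0.96 on HFD. The part of these cells in the values of the 10 genes was not tested. Of the zone genes, 9 pericentral ones had a median of 0.03 on chow and -0.27 on HFD between genotypes, and 10 periportal ones -0.04 and -0.17. Among 14 genes of sterol handling with a probe, Sqle had the widest genotype difference on HFD (0.72).

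Cyp7a1 and Cyp7b1 varied by at least 1 (log2) over the 4 arrays and were compared with all 13980 other genes above background on all 4, by the root mean square difference of log2 values after each gene was centred on its mean. The genes most like Cyp7a1 were the predicted gene Gm29896 (0.21), Retnlg (0.22) and S100a9 (0.23), the last 2 known from neutrophils. S100a9 read 3396, 1648, 4290 and 2879, and Retnlg 136, 58.4, 164 and 126. Those most like Cyp7b1 were Lama3 (0.07), a laminin subunit, Ces2a (0.08), a carboxylesterase of liver with signals of 6175, 5051, 2070 and 1415, and the predicted gene Gm15230 (0.09). Over only 4 arrays, and with the smallest differences of 13980 genes picked, such likeness is a description. The value of Ces2a is of the size of the technical spread for signals over 1000 (0.072). Lama3 and Gm15230 had signals under 100, where that spread is 0.271, larger than their values.

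**Figure D5:**
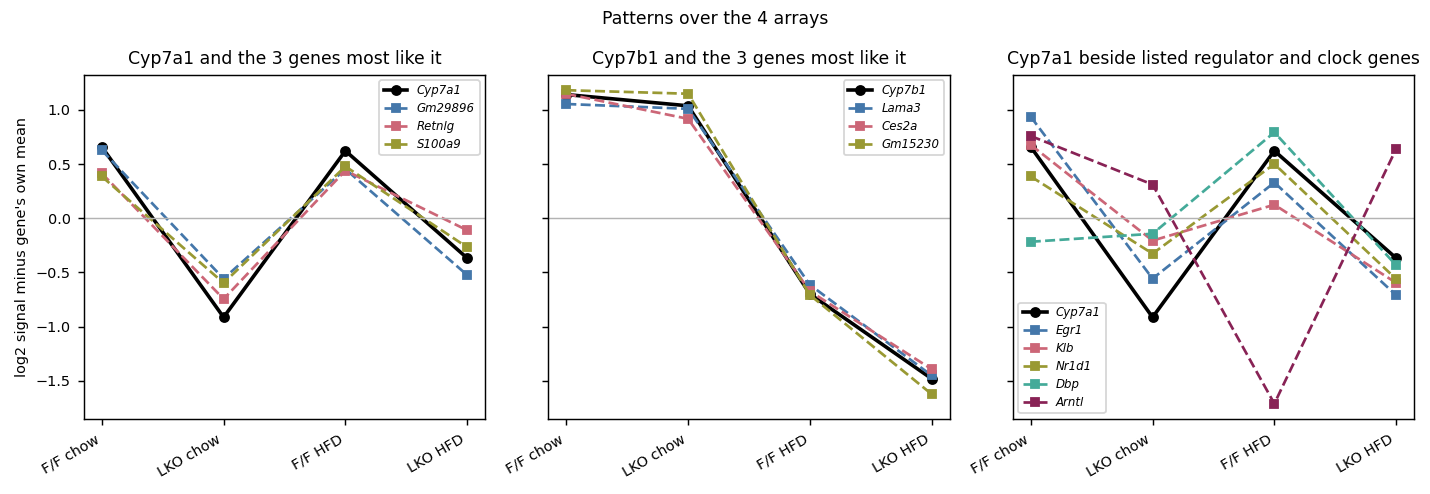
Log2 signal of each gene on the 4 arrays minus its own mean. Left and middle, Cyp7a1 and Cyp7b1 (black) with the 3 genes most like each. Right, Cyp7a1 with listed regulator and clock genes: Egr1, Klb and Nr1d1 are lower on each LKO array than on the F/F array of the same diet, as Cyp7a1 is, while Arntl is lowest and Dbp highest on F/F HFD.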

How the data were processed

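Liver RNA was measured on 4 one-colour Agilent SurePrint G3 mouse arrays. The authors deposited the scanner files of Agilent Feature Extraction 12.0.3.1, which hold a processed intensity (background-subtracted and spatially detrended), the raw intensity of spot and local background, and flags. They also deposited a table of intensity values, in which each column equals the processed signal of its array times 1 factor (2.60 and 2.63 for F/F and LKO on chow, 2.41 and 2.10 on HFD). The origin of these factors is not given in the sources used here. The labels and the paper name different RNA kits and housing temperatures.

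From the deposited intensity, log2 values minus the 75th percentile of each array were computed in Python 3.11.15 (numpy 2.4.6, pandas 2.3.3), without outlier spots (no spot was saturated). Accessions were matched to symbols through the RefSeq table of GRCm38.p6, for 33767 of 56605 probes. The arrays name another assembly, so gene coordinates are left out. The probe with the highest mean stood for a gene. A probe not well above background on 1 array of a comparison gives a bound, and on both no value. Samples were grouped by the labels. Named are all probes of the 10 genes, Mboat7, the genes of each pathway list at least 2-fold different in any comparison with a few others of known role, and the 3 genes most like each gene that spanned at least 1 (log2). The few others were named after their values were seen. The 10 genes and all lists were chosen with earlier results of these data known. Of the listed symbols, Tf was read as Trf and Diet1 as Malrd1. The steps were tested on simulated data. Normexp with offset 50 used limma 3.58.1 in R 4.3.3, and figures matplotlib 3.10.9.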

Additional observations from a re-analysis of the deposited data

Results flagged for a closer look

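Cyp8b1 differed between genotypes in opposite directions on the 2 diets, by 0.23 (log2, LKO minus F/F) on chow and -0.65 on HFD, both beyond the technical spread of 0.072 for signals over 1000. Equally, HFD minus chow was 0.51 in F/F and -0.38 in LKO. Under scaling to hepatocyte markers the genotype difference on HFD was -0.40, while the diet differences were 0.85 and 0.23 and no longer opposed each other. Each direction rests on 1 array per condition, and the difference between the diets or genotypes was not tested. Cyp27a1 had genotype differences of opposite sign too, 0.09 on chow and -0.16 on HFD. The chow value is under 2 SD of replicate spots, and under scaling to hepatocyte markers the HFD value was 0.09, so that the signs no longer opposed each other. This difference was not tested either.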

How the results depend on the processing

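Values of the 10 genes were recomputed in 8 other ways (normexp, the percentile over probes above background on all 4 arrays, quantile normalization, the deposited table, no filter and no floor, only genes above background on all 4 arrays, the mean of all probes, the dimmest probe) and in 1 chosen after seeing the data, scaling to hepatocyte markers. Of 39 values, 26 kept their sign under all of these and 13 did not, and none of the values at least 2-fold in size changed sign. Not every way could move every value. The deposited table equals the processed signal times 1 factor per array, which the percentile scaling removes. For a gene with 1 probe above background on all 4 arrays, the filters and the choice of probe also return the same value. With normexp, the members at least 2-fold higher on HFD became 0 in each genotype, because Slc51b is close to background. Over all genes normexp left 211 of 15012 in F/F and 428 of 14674 in LKO. With only genes above background on all 4 arrays the count was also 0, beside 602 (F/F) and 969 (LKO) of 13981 genes. Scaling to hepatocyte markers gave 2 in LKO, beside 3199 of all 15581 genes with a value. It moved the median of the 10 genes to -0.14 for genotype on HFD, 0.12 for diet in F/F and 0.13 in LKO, and quantile normalization moved the last 2 to -0.04 and -0.33.

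Of the other pathway genes, normexp left 2 at least 2-fold lower in LKO on HFD, in place of 6, and 2 (F/F) and 0 (LKO) at least 2-fold higher on HFD, in place of 4 and 2. Over all genes normexp left 85 of 15328 at least 2-fold lower in LKO on HFD. Scaling to hepatocyte markers gave 1 higher and 1 lower for genotype on HFD, and 4 higher and 2 lower (in place of 8) for diet in LKO. Over all genes this scaling gave 776 higher and 175 lower of 15641 for the former, and 3199 higher and 179 lower of 15581 for the latter. At a 1.5-fold threshold, 4 of the 10 genes were lower in LKO on HFD and 3 lower on HFD in LKO. Of the pathway genes, 1 was then higher and 5 lower for genotype on chow, and 2 higher and 14 lower on HFD. For diet, 14 were lower in F/F, and 4 higher and 20 lower in LKO. Those higher for diet in F/F were Ch25h, Abcb1a, Fabp6 (a bound), Dbp, Fgf21 and Ppargc1a. At 4-fold, 0 of the 10 genes remained but Cyp7b1 in LKO. Of the pathway genes 0 were left for genotype on either diet, 1 in each direction for diet in F/F, and 0 higher and 1 lower in LKO. Shares of all genes at 1.5-fold and 4-fold are not given here, so the counts at these thresholds are no result about the genes as a group. No paired analysis was possible because each condition has 1 array. Signal over background, and 1 array per condition, limit what these values can show.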
